A study of Homo sapiens with 9 samples.

Results

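The 10 genes described here encode the subunits of the transcription factor NF-κB and proteins that inhibit or otherwise regulate it. They are the 5 subunits NFKB1, NFKB2, RELA, RELB and REL, the inhibitors NFKBIA and NFKBIE, and the regulators TNFAIP3, BIRC3 and TNIP1. They were taken by gene symbol, and each had 1 row among the 58884 genes of the count table. Expression was measured by RNA-seq of poly(A) RNA in MDA-MB-231, a human claudin-low breast cancer cell line (Par), and in LM2 and BrM2, sub-populations of that line recovered after in vivo selection for metastasis to lung and to brain. Each line gave 3 libraries, from cells taken at different passages, which makes 9 in all. All lines grew as monolayers in DMEM with 10% FBS, penicillin and streptomycin at 37 °C and 5% CO2 for 3 days. The labels name no added ligand, so the values are taken to describe cultures without an added stimulus. LM2 and BrM2 are each 1 selected population, so the replicates measure passages of that population and not separate selections.

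NF-κB subunits bind DNA as dimers. NFKB1 and NFKB2 encode the precursors p105 and p100, which are processed to the subunits p50 and p52, while RELA, RELB and REL encode subunits with a transactivation domain. In resting cells IκB proteins such as the product of NFKBIA keep dimers in the cytoplasm. In the canonical pathway, receptors such as those for TNF and interleukin 1 activate the IκB kinase complex, IκBα is degraded and dimers with RELA enter the nucleus. In the non-canonical pathway, receptors such as CD40 stabilise the kinase NIK, p100 is processed and dimers of p52 and RELB form. Several genes of the pathway are themselves NF-κB targets, so that NFKBIA, NFKBIE, TNFAIP3, BIRC3 and TNIP1 are known as feedback genes. MDA-MB-231 is known for NF-κB activity in culture without an added stimulus.

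Promoters of 7 members hold the DNA letters that NF-κB is known to bind. The κB consensus was searched on both strands in the 250 bases upstream of the RefSeq transcription starts that had a promoter window (GRCh38.p14). Not every start had a window. The only window of TNFAIP3 (chr6:137867009-137867308) lies inside the gene, which begins at 137866349, and the windows of TNIP1 also lie inside their gene. The windows of NFKB2 at its starts 2 and 3, which hold all its matches, lie inside that gene too, which begins at 102394110. The window at the first start of NFKB2 holds no match. The second windows of NFKB1 and RELA are also inside their genes. The consensus has 10 letters, and a match on both strands at 1 position was counted once. No other motif was searched. Of the 10 members, 8 had a promoter window, and NFKB1, NFKB2, REL, NFKBIA, TNFAIP3, BIRC3 and TNIP1 had at least 1 match, which is 7 of 8. RELA had no match in its windows. Counted by start, 8 of 13 windows of the members held a match, against 6.88% of 35116 windows of all genes. The members were picked as genes of the pathway and include known NF-κB targets. The choice therefore favours a high share of matches, and the comparison with all genes is no test. At the level of the gene, 8.22% of all genes had a match upstream of any start with a window. Windows with 2 or more matches made up 0.928% of all windows, and those of TNFAIP3 and of NFKB2 at its starts 2 and 3 were among them. A match is a description of the letters and does not show that a factor was bound in these cells.

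The stretches around these matches are shown because 7 members hold such a match, with the match in capitals and read 5′ to 3′ on the strand of the gene. NFKBIA and BIRC3 are given with 120 bases and the others with 30 bases.
NFKB1, chr4:102501300-102501329, plus strand: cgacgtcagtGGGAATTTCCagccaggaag
NFKB2, start 2, chr10:102394461-102394490, plus strand: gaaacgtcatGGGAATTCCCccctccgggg
NFKB2, start 2, chr10:102394490-102394519, plus strand: gggccgagaaGGGGCTTTCCcggccctgag
NFKB2, start 3, chr10:102395519-102395548, plus strand: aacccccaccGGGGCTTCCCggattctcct
NFKB2, start 3, chr10:102395674-102395703, plus strand: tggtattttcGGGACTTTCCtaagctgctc
REL, chr2:60881518-60881547, plus strand: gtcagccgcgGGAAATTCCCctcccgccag
NFKBIA, chr14:35404750-35404869, minus strand: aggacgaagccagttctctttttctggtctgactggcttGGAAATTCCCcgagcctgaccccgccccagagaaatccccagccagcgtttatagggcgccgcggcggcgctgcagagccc
TNFAIP3, chr6:137867188-137867217, plus strand: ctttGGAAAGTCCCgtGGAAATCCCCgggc
BIRC3, chr11:102317244-102317363, plus strand: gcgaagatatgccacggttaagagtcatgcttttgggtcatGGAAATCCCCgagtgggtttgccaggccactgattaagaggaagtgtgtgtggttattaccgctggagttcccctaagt
TNIP1, chr5:151081057-151081086, minus strand: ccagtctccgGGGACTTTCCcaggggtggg

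REL and NFKBIA carried the same 10 letters, as did TNFAIP3 at its second match and BIRC3, and TNIP1 and NFKB2 at the later match of its start 3. The 2 matches of TNFAIP3 lay from 67 to 58 and from 55 to 46 bases upstream of its start with a window, while the match of BIRC3 lay from 199 to 190 bases upstream.

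**Figure D1:**
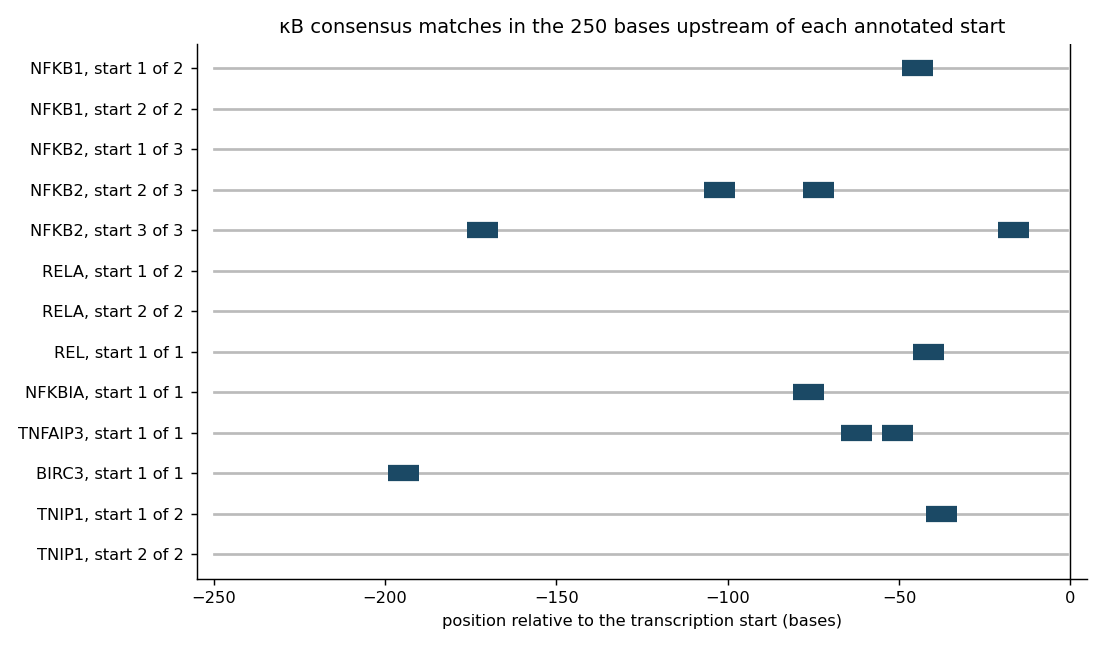
Positions of the κB consensus matches (dark blocks) in the 250 bases upstream of each RefSeq start that had a promoter window, for 8 members, with the position relative to the start in bases on the horizontal axis and 1 line per start with a window. The windows of RELA, the first of NFKB2 and the second of NFKB1 and TNIP1 hold no match.

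The libraries held between 14371858 and 24511786 counts, and levels are given below as CPM, the counts of a gene scaled to a common library total after TMM normalization. The 13186 genes past the filter on low counts were tested, and all 10 members were among them. Of the markers of the labelled mammary epithelial cell type, KRT8 and KRT18 were high, while EPCAM lay between 2.73 and 7.94 CPM and CDH1 between 0.144 and 1.95 CPM. The mesenchymal markers VIM and CD44 summed to between 1150 and 2730 CPM. The epithelial marker CD24 lay between 1.69 and 2.48 CPM in Par, between 5.76 and 9.59 in LM2 and between 11.9 and 15.2 in BrM2. All 3 blood cell markers stayed under 1 CPM in each library, as did DCN, 1 of 3 fibroblast markers, and CDH5, 1 of 2 endothelial markers. The fibroblast markers summed to between 31.4 and 39.2 CPM in Par, between 39.5 and 64.3 in LM2 and between 10.6 and 21.8 in BrM2. Of these, COL1A1 was highest in LM2, between 35.1 and 54.4 CPM, and PDGFRB was highest in Par, between 26.6 and 31.2 CPM. The endothelial markers, nearly all of it PECAM1, summed to between 3.1 and 7.27 CPM in Par, between 2.16 and 2.53 in LM2 and between 2.95 and 3.78 in BrM2. The part of these markers in the results below was not tested.

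Replicate 1 of every line stood apart from replicates 2 and 3. With the line held fixed, 9521 of the tested genes (72.2%) differed between replicate 1 and the others. The difference moved with the GC content of the transcript, with a median of -1.07 on the log2 scale for the 2239 genes under 40% GC and of 0.79 for the 1817 genes at 60% GC or over. Of the members, 8 differed. RELB, with 64.9% GC, was higher by 1.23 on the log2 scale in replicate 1 (adjusted p = 0.00036 in edgeR's quasi-likelihood test, Benjamini-Hochberg adjusted), and BIRC3, with 35.8% GC, was lower, at -1.83 (adjusted p = 7.6e-05 in the same edgeR test). NFKB1, with 50.1% GC, did not pass, at 0.01. The difference between the replicate numbers is present in each line, and what part it has in the differences between lines was not tested.

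**Figure D2:**
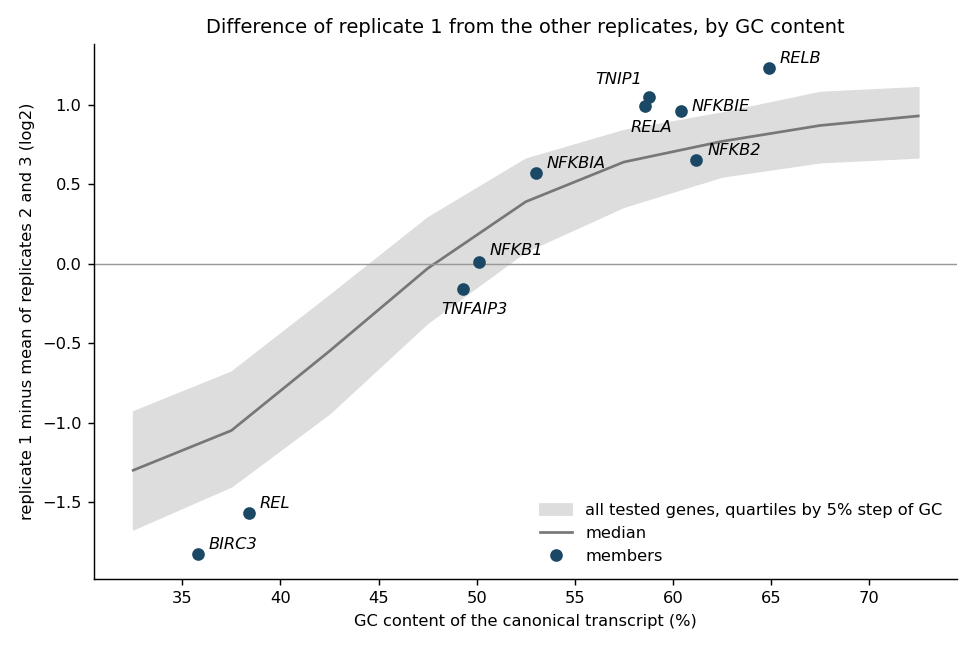
Log2 difference of replicate 1 from the mean of replicates 2 and 3 against the GC content of the canonical transcript (%), for the 10 members (points) and for all tested genes (median line and quartile band by 5% step of GC). RELB, TNIP1, RELA and NFKBIE lie above the band, between 0.96 and 1.23, REL and BIRC3 lie below it at -1.57 and -1.83, and NFKB1 lies at 0.01.

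The lines were therefore compared in edgeR's quasi-likelihood test in a pair of models, each fitted over all 9 libraries with Benjamini-Hochberg adjustment over all tested genes and a threshold of 0.05. The first has the line as its only factor, and the second adds the replicate number as a block, since libraries with the same number deviated together. "Rose" and "fell" are used below only for a gene past the threshold, with the model named. LM2 and BrM2 were compared with the same Par libraries, so these comparisons are not independent of each other, and the comparison of BrM2 with LM2 uses the same libraries again. Without the block, none of the members passed in LM2 against Par, against 8.71% of all tested genes, and 3 members had an unadjusted p under 0.05, against 20.3% of all tested genes. None passed in BrM2 against Par either, against 13.4% of all tested genes, and 0 members had an unadjusted p under 0.05, against 25% of all tested genes. DESeq2 without the block also called 0 members in both. In BrM2 against LM2, 1 member passed without the block, NFKB2, against 8.07% of all tested genes.

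With the block, 6 of 10 members passed in LM2 against Par, against 34.5% of all tested genes. In bulk cultures such as these, fewer cells that express a gene and less RNA per cell cannot be told apart. Of these, 5 fell, NFKB2, RELB, NFKBIA, NFKBIE and BIRC3, where 19.1% of all tested genes fell, and TNFAIP3 rose, where 15.4% of all tested genes rose. In BrM2 against Par 2 members passed, against 42.5% of all tested genes, which is a smaller share than that of all genes. NFKB2 rose there, as 19.4% of all tested genes did, and NFKBIA fell, as 23.1% did. In BrM2 against LM2 5 members passed, against 37.3% of all tested genes. These were NFKB2, RELB, NFKBIA, NFKBIE and BIRC3, and each was higher in BrM2, in a direction in which 17.7% of all tested genes passed, while none of the members fell there in edgeR or in DESeq2 with the block, against 19.6% of all tested genes in edgeR. The 5 were also the members with an unadjusted p under 0.05, against 47.3% of all tested genes.

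With the block, the median log2 fold change of the members was -0.45 in LM2 against Par, where that of all tested genes was -0.02. It was 0.16 in BrM2 against Par, beside -0.04 for all tested genes, and 0.31 in BrM2 against LM2, beside -0.02. In LM2 against Par, 6 members had the same direction in all 3 replicate numbers, against 61.7% of all tested genes. In BrM2 against Par this held for 7 members, against 62.7%, and in BrM2 against LM2 for 7 members, against 65.1%. These shares of the members lie near those of all genes. The libraries of LM2 and Par did not overlap for 2 members, NFKBIA and TNFAIP3, where 25.2% of all tested genes did not overlap. Those of BrM2 and Par did not overlap for NFKB1 and TNFAIP3, against 31.4%, and those of BrM2 and LM2 did not overlap for NFKB2, against 23.2%.

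**Figure D3:**
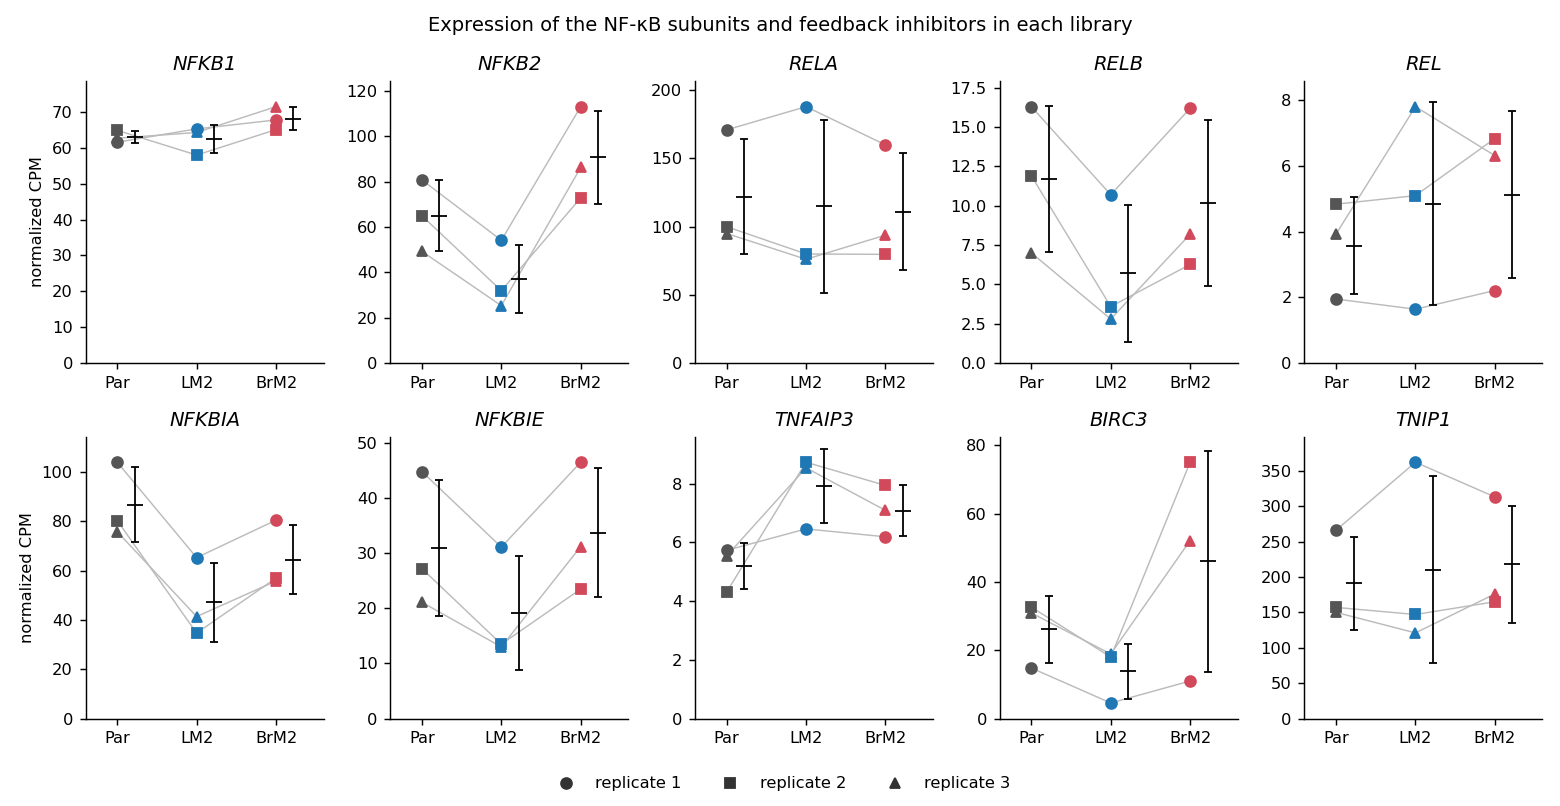
Normalized CPM of each member in each of the 9 libraries, by line, with circles, squares and triangles for replicates 1, 2 and 3, grey lines joining libraries with the same number, and black bars for mean ± SD (n = 3). For NFKB2, RELB, NFKBIA, NFKBIE and BIRC3 the LM2 library lies below the Par library of the same number in all 3 numbers.

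Per kilobase of the canonical transcript, which takes out transcript length but not effects that move with GC content, the members spanned a wide range. In Par, TNIP1 had the highest level, at 66.5 ± 22.8 CPM per kilobase (SD, n = 3), followed by NFKBIA at 55.6 ± 9.78 and RELA at 48.4 ± 16.8. NFKB2 stood at 21.5 ± 5.21, NFKB1 at 15.5 ± 0.418 and NFKBIE at 13.3 ± 5.24 CPM per kilobase. RELB at 5.19 ± 2.05, BIRC3 at 3.79 ± 1.43, TNFAIP3 at 1.11 ± 0.166 and REL at 0.321 ± 0.133 were the lowest. The mean ± SD ranges overlapped between TNIP1 and NFKBIA, NFKBIA and RELA, NFKB1 and NFKBIE, and RELB and BIRC3. These ranges include the difference between the replicate numbers, which genes of a library share. Overlap of the ranges therefore does not decide the order within a library, which was not compared here or for the other lines.

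In LM2, NFKB2 lay below NFKB1, at 12.3 ± 4.99 against 15.4 ± 0.985 CPM per kilobase, with overlapping ranges. Above them stood TNIP1 at 73.2 ± 46.2, RELA at 45.5 ± 25.1 and NFKBIA at 30.2 ± 10.3. Below them were NFKBIE at 8.21 ± 4.4, RELB at 2.52 ± 1.93, BIRC3 at 2.01 ± 1.17, TNFAIP3 at 1.7 ± 0.27 and REL at 0.437 ± 0.278. Of the neighbours in this order, the mean ± SD ranges were apart between NFKBIA and NFKB1 and between TNFAIP3 and REL, and overlapped between the others.

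In BrM2, NFKB2 was above NFKB1 again, at 30 ± 6.83 against 16.8 ± 0.795 CPM per kilobase, with ranges apart. TNIP1 stood at 76.0 ± 28.8, RELA at 44.2 ± 17.1, NFKBIA at 41.3 ± 8.95 and NFKBIE at 14.4 ± 4.99. BIRC3 came before RELB, at 6.69 ± 4.71 against 4.52 ± 2.34, and TNFAIP3 at 1.52 ± 0.188 and REL at 0.461 ± 0.228 were lowest. The ranges were also apart between RELB and TNFAIP3 and between TNFAIP3 and REL, and overlapped between the other neighbours.

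Of the subunits made as precursors, NFKB1 (ENSG00000109320, chr4:102501359-102617302), which encodes p105 and p50, had nearly the same level in all lines. It had 61.6, 64.9 and 62.7 CPM in Par (replicates 1, 2 and 3), 65.3, 58.0 and 64.3 CPM in LM2, and 67.8, 65.1 and 71.5 CPM in BrM2. The lowest BrM2 library was just above the highest Par library. The log2 fold change with the block was -0.01 ± 0.11 (SE) in LM2 against Par (adjusted p = 0.93 in edgeR's quasi-likelihood test, Benjamini-Hochberg adjusted) and 0.11 ± 0.11 in BrM2 against Par (adjusted p = 0.45 in the same edgeR test), and neither passed.

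NFKB2 (ENSG00000077150, chr10:102394110-102402529), which encodes p100 and p52 of the non-canonical pathway, had the widest range of line means among the subunits, 1.34 on the log2 scale. It had 80.7, 64.9 and 49.2 CPM in Par, 54.1, 31.9 and 25.3 CPM in LM2, and 113, 72.8 and 86.2 CPM in BrM2. All BrM2 libraries were above all LM2 libraries, while Par overlapped with both. In LM2 against Par it fell by 0.85 ± 0.16 on the log2 scale with the block (1.8-fold, adjusted p = 0.0018 in edgeR's quasi-likelihood test, Benjamini-Hochberg adjusted), and without the block it stood at -0.81 ± 0.33 (adjusted p = 0.2 in edgeR). In BrM2 against Par it rose by 0.49 ± 0.15 with the block (adjusted p = 0.024 in edgeR), a call lost without replicate 1 (adjusted p = 0.073) and without replicate 3 (adjusted p = 0.2), and without the block it stood at 0.48 ± 0.32 (adjusted p = 0.43 in edgeR). Between BrM2 and LM2 it was higher in BrM2 in both models, by 1.34 ± 0.16 with the block (2.54-fold, adjusted p = 0.0001 in edgeR) and by 1.29 ± 0.33 without it (adjusted p = 0.045 in edgeR). The call without the block held in 1 of 9 fits that each left out a library, the fit without LM2 replicate 1 (adjusted p = 0.012 in edgeR), where the adjusted p reached 0.18 in the others. The direction was the same in all 3 replicate numbers, with log2 differences of 1.07, 1.19 and 1.76.

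RELA (ENSG00000173039, chr11:65653601-65663857), the p65 subunit of the canonical heterodimer with p50, did not pass in any comparison. It had 171, 100 and 95.0 CPM in Par, 188, 80.0 and 76.1 CPM in LM2, and 160, 79.7 and 93.8 CPM in BrM2. Replicate 1 was the highest library of each line, and the lines overlapped. With the block, the log2 fold change was -0.17 ± 0.13 in LM2 against Par, -0.15 ± 0.13 in BrM2 against Par and 0.02 ± 0.13 in BrM2 against LM2, with adjusted p of 0.36, 0.39 and 0.92 in edgeR. RELA-DT overlaps RELA on the opposite strand, and the strand that was counted is not given in the sources used here, so reads of the pair may not be told apart.

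RELB (ENSG00000104856, chr19:45001464-45038192), the partner of p52, had 16.3, 11.9 and 7.0 CPM in Par, 10.7, 3.59 and 2.80 CPM in LM2, and 16.2, 6.27 and 8.19 CPM in BrM2. The lines overlapped, while each LM2 library was the lowest of its replicate number. In LM2 against Par RELB fell by 1.2 ± 0.25 on the log2 scale with the block (2.29-fold, adjusted p = 0.0041 in edgeR's quasi-likelihood test, Benjamini-Hochberg adjusted), and without it stood at -1.04 ± 0.58 (adjusted p = 0.38 in edgeR). It was higher in BrM2 than in LM2 by 0.96 ± 0.25 with the block (adjusted p = 0.013 in edgeR), a call lost without replicate 3 (0.69, adjusted p = 0.14), and stood at 0.84 ± 0.58 without the block (adjusted p = 0.48 in edgeR). BrM2 against Par gave -0.24 ± 0.25 with the block and did not pass (adjusted p = 0.46 in edgeR).

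REL (ENSG00000162924, chr2:60881574-60931612), which encodes c-Rel, a subunit best known from lymphoid cells, was the lowest of the subunits in each line per kilobase. It had 1.95, 4.84 and 3.93 CPM in Par, 1.64, 5.10 and 7.81 CPM in LM2, and 2.21, 6.84 and 6.32 CPM in BrM2, from between 30 and 204 counts per library. Replicate 1 was the lowest library of each line. The log2 fold change with the block was 0.36 ± 0.24 in LM2 against Par and 0.48 ± 0.24 in BrM2 against Par, and neither passed (adjusted p = 0.28 and 0.13 in edgeR). Of the distinct 50-base stretches of all its annotated transcripts, 32.9% also occur in transcripts of other genes, so its counts are uncertain.

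Both IκB inhibitors were lower in LM2. NFKBIA (ENSG00000100906, chr14:35401513-35404749) encodes IκBα, the inhibitor that is degraded and made anew when the canonical pathway is active. It had 104, 80.3 and 75.8 CPM in Par, 65.3, 34.7 and 41.4 CPM in LM2, and 80.5, 57.0 and 55.8 CPM in BrM2. All Par libraries were above all LM2 libraries, and BrM2 lay between them with overlap on both sides. In LM2 against Par it fell by 0.91 ± 0.13 on the log2 scale with the block (1.88-fold, adjusted p = 0.0003 in edgeR's quasi-likelihood test, Benjamini-Hochberg adjusted), and without it stood at -0.88 ± 0.28 (adjusted p = 0.1 in edgeR). In BrM2 against Par it fell by 0.44 ± 0.13 with the block (1.35-fold, adjusted p = 0.017 in edgeR), and without it stood at -0.43 ± 0.28 (adjusted p = 0.42 in edgeR). It was higher in BrM2 than in LM2 by 0.48 ± 0.13 with the block (adjusted p = 0.014 in edgeR), and without it stood at 0.45 ± 0.28 (adjusted p = 0.43 in edgeR). The blocked calls of BrM2 against Par and against LM2 were lost without replicate 3 (adjusted p = 0.2 and 0.11 in edgeR). NFKBIA and NFKB2 were the members that passed in all 3 comparisons with the block.

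NFKBIE (ENSG00000146232, chr6:44258166-44265551), which encodes IκBε, had 44.8, 27.2 and 21.1 CPM in Par, 31.1, 13.5 and 13.0 CPM in LM2, and 46.5, 23.5 and 31.2 CPM in BrM2. The lines overlapped, and replicate 1 was the highest library of each. It fell in LM2 against Par by 0.74 ± 0.17 on the log2 scale with the block (adjusted p = 0.006 in edgeR's quasi-likelihood test, Benjamini-Hochberg adjusted), and without it stood at -0.69 ± 0.43 (adjusted p = 0.46 in edgeR). It was higher in BrM2 than in LM2 by 0.88 ± 0.17 with the block (adjusted p = 0.0023 in edgeR), and without it stood at 0.81 ± 0.44 (adjusted p = 0.34 in edgeR). BrM2 against Par gave 0.14 ± 0.17 with the block and did not pass (adjusted p = 0.53 in edgeR).

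The ubiquitin-linked regulators went different ways. TNFAIP3 (ENSG00000118503, chr6:137866349-137883312) encodes A20, the ubiquitin-editing enzyme that ends signalling from TNF and interleukin 1 receptors. It had 5.73, 4.31 and 5.54 CPM in Par, 6.46, 8.73 and 8.54 CPM in LM2, and 6.19, 7.94 and 7.09 CPM in BrM2. All Par libraries were below all libraries of the other lines. It rose in LM2 against Par by 0.60 ± 0.19 on the log2 scale with the block (1.51-fold, adjusted p = 0.032 in edgeR's quasi-likelihood test, Benjamini-Hochberg adjusted), a call lost without replicate 2 (0.43, adjusted p = 0.17) and without replicate 3 (0.63, adjusted p = 0.15), and without the block it stood at 0.61 ± 0.23 (adjusted p = 0.16 in edgeR). BrM2 against Par gave 0.44 ± 0.19 with the block and did not pass (adjusted p = 0.089 in edgeR). TNFAIP3 was the only member that passed in the direction of a higher level in LM2 than in Par.

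BIRC3 (ENSG00000023445, chr11:102317484-102339403) encodes cIAP2, a ubiquitin ligase of TNF receptor complexes. It had 14.8, 32.6 and 30.9 CPM in Par, 4.57, 18.0 and 18.9 CPM in LM2, and 11, 75 and 52.1 CPM in BrM2. Replicate 1 was the lowest library of each line, and the lines overlapped through it. It fell in LM2 against Par by 1.08 ± 0.25 on the log2 scale with the block (2.12-fold, adjusted p = 0.0073 in edgeR's quasi-likelihood test, Benjamini-Hochberg adjusted), and without it stood at -0.91 ± 0.71 (adjusted p = 0.57 in edgeR). Between BrM2 and LM2 it was higher in BrM2 by 1.64 ± 0.25 with the block (3.12-fold, adjusted p = 0.00062 in edgeR), the highest value among the members in that comparison, and without it stood at 1.73 ± 0.72 (adjusted p = 0.21 in edgeR). BrM2 against Par gave 0.56 ± 0.25 with the block and did not pass (adjusted p = 0.093 in edgeR), and the log2 differences by replicate number were -0.42, 1.2 and 0.75, so replicate 1 went against the others. Without replicate 1 the blocked log2 fold change was 1.0 and BIRC3 passed (adjusted p = 0.0058 in edgeR).

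TNIP1 (ENSG00000145901, chr5:151029943-151087685) encodes ABIN1, a ubiquitin-binding partner of A20. It had 266, 157 and 150 CPM in Par, 362, 147 and 121 CPM in LM2, and 313, 165 and 176 CPM in BrM2. Replicate 1 was the highest library of each line. With the block it stood at 0.03 ± 0.15 in LM2 against Par and at 0.18 ± 0.15 in BrM2 against Par, and did not pass (adjusted p = 0.91 and 0.36 in edgeR).

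**Figure D4:**
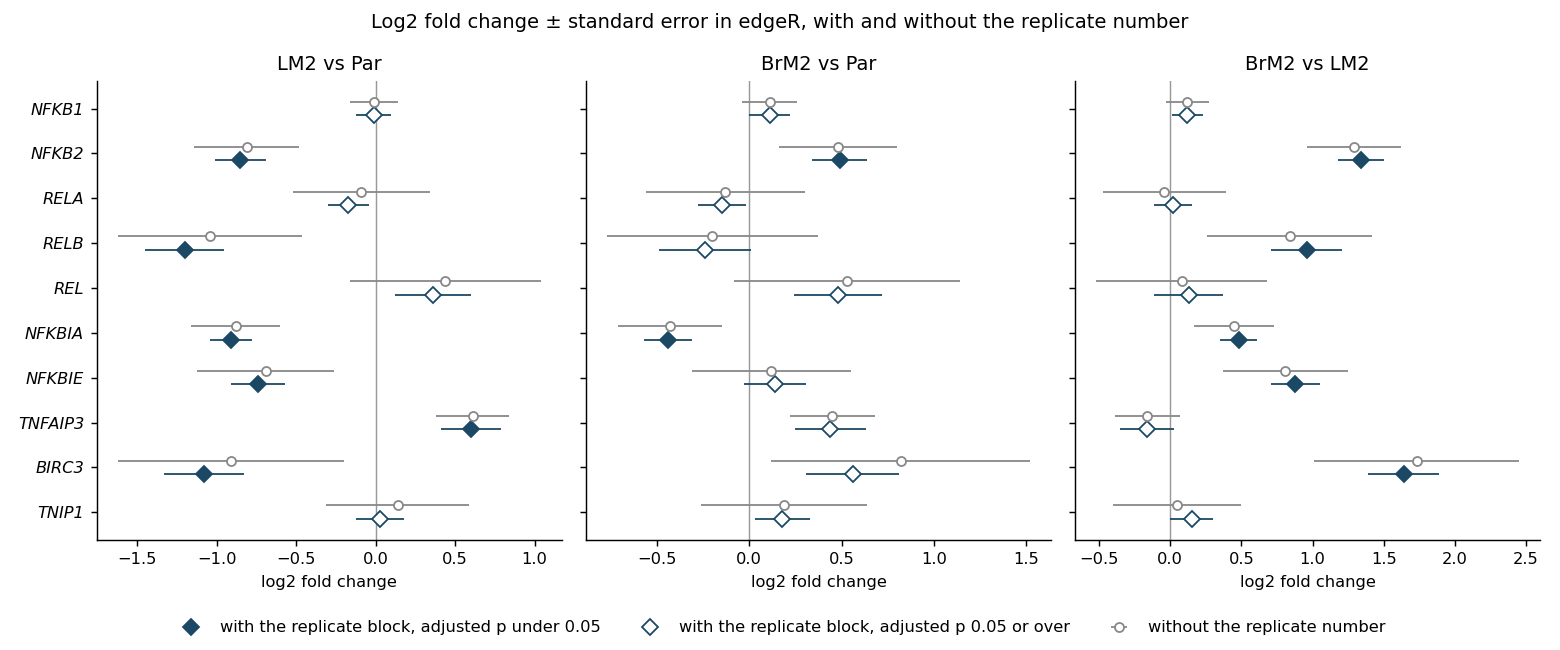
Log2 fold change of each member (bars show the standard error) in LM2 against Par, BrM2 against Par and BrM2 against LM2, without the replicate number (grey circles) and with the replicate block (diamonds, filled where the adjusted p in edgeR was under 0.05). The block shortens the bars, and the filled diamonds number 6, 2 and 5.

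Leaving out a replicate number from the blocked model kept some of these calls in all 3 fits and lost others. In BrM2 against Par no call held in all 3. NFKB2 passed in 1 of 3 and NFKBIA in 2 of 3, and 0 members passed without replicate 3. TNFAIP3 passed in 1 of 3 in LM2 against Par. RELB and NFKBIA passed in 2 of 3 in BrM2 against LM2. NFKB2, RELB, NFKBIA, NFKBIE and BIRC3 were lower in LM2 than in Par past the threshold in each of the 3 fits. NFKB2, NFKBIE and BIRC3 were higher in BrM2 than in LM2 past the threshold in each of the 3 fits. Without replicate 1, the model with the line as its only factor called 6, 3 and 5 members in LM2 against Par, BrM2 against Par and BrM2 against LM2. The shares of all tested genes that passed in these leave-out fits were not taken, so these counts cannot be set against them. The same model without replicate 1 also called more genes of the pathway lists described below. It called 30 of them in LM2 against Par, where 8 passed with all 9 libraries.

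Differences between members of 1 library do not depend on how libraries are scaled, and are given on the log2 scale as a description with no test. The mean of NFKB2 and RELB, the subunits of the non-canonical dimer, minus the mean of NFKB1 and RELA, those of the canonical dimer, was -1.50, -1.53 and -2.05 in Par, -2.20, -2.65 and -3.03 in LM2, and -1.28, -1.74 and -1.62 in BrM2. All LM2 libraries were below all others. By replicate number LM2 was below Par by -0.70, -1.12 and -0.98, and BrM2 differed from Par by 0.22, -0.21 and 0.43, in both directions. RELB minus RELA is part of that difference and not a separate observation. Its means were -3.40 ± 0.34 in Par, -4.43 ± 0.30 in LM2 and -3.48 ± 0.18 in BrM2 (SD, n = 3). Effects that move with GC content are not removed from either difference.

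The balance of regulators to subunits did not separate the lines. The mean of NFKBIA, NFKBIE, TNFAIP3, BIRC3 and TNIP1 minus the mean of the 5 subunits was 0.35 ± 0.14 in Par, 0.32 ± 0.13 in LM2 and 0.38 ± 0.22 in BrM2 (log2, SD, n = 3), and these differences between lines were smaller than the spread. Between the IκB genes, NFKBIE minus NFKBIA was -1.54 ± 0.31 in Par, -1.36 ± 0.30 in LM2 and -0.97 ± 0.27 in BrM2. By replicate number BrM2 was above Par by 0.42, 0.28 and 1.0.

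Other genes of the pathway were taken from lists by role. Of their 60 tested genes, 8 passed in LM2 against Par without the block, 11 in BrM2 against Par and 6 in BrM2 against LM2. With the block 27 passed in LM2 against Par (45.0%), of which 11 rose and 16 fell. In BrM2 against Par 31 passed (51.7%), with 14 that rose and 17 that fell, and in BrM2 against LM2 24 passed (40%), with 11 that rose and 13 that fell. The genes went in both directions in each comparison, and the shares of all tested genes that passed are given above. The receptor LTBR was not analysed here.

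Among ligands, 3 of 10 were tested, and of these IL1B, which encodes the cytokine interleukin 1β, had the widest change. It had 0.263, 0.242 and 0.55 CPM in Par, 39.4, 33.3 and 24.3 CPM in LM2, and 7.30, 5.60 and 3.35 CPM in BrM2. The lines did not overlap. IL1B rose in LM2 against Par by 6.47 ± 0.47 on the log2 scale without the block (adjusted p = 0.00012 in edgeR's quasi-likelihood test, Benjamini-Hochberg adjusted) and in BrM2 against Par by 3.88 ± 0.44 (adjusted p = 0.0006 in edgeR). No Par library had over 14 counts of IL1B, so the sizes of both changes rest on few counts in Par. IL1A also rose in LM2 against Par, by 2.15 without the block (adjusted p = 0.014 in edgeR). Its mean was under the 50 counts set as the minimum for naming a gene, so this value rests on few counts. TNF, LTA, LTB and TNFSF11 were among the 7 ligands that did not pass the filter.

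Of the 9 receptors tested, 6 passed with the block in LM2 against Par, 3 in each direction, against 34.5% of all tested genes. In BrM2 against Par 5 passed, against 42.5% of all tested genes. IL1R1, the signalling receptor of interleukin 1, had 14.7, 16.7 and 18.2 CPM in Par, 3.83, 5.10 and 6.16 CPM in LM2, and 3.98, 6.71 and 6.23 CPM in BrM2. Without the block it fell by 1.72 ± 0.27 in LM2 against Par (adjusted p = 0.0051 in edgeR) and by 1.55 ± 0.27 in BrM2 against Par (adjusted p = 0.006 in edgeR). The receptor gene thus fell where IL1B rose, in both comparisons.

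CD40 and TNFRSF11A, receptors of the non-canonical pathway, differed between LM2 and BrM2. CD40 had 53.2, 37.7 and 36.2 CPM in Par, 16.3, 12.4 and 10.1 CPM in LM2, and 40, 35.4 and 35.5 CPM in BrM2, so that all LM2 libraries were below all others. It fell by 1.71 ± 0.25 in LM2 against Par (adjusted p = 0.0029 in edgeR, without the block) and rose by 1.51 ± 0.24 in BrM2 against LM2 (adjusted p = 0.0056 in edgeR). TNFRSF11A, which encodes RANK, had 5.00, 3.92 and 3.58 CPM in Par, 7.45, 6.53 and 6.32 CPM in LM2, and 21.5, 19.9 and 18.9 CPM in BrM2. It rose by 2.27 ± 0.21 in BrM2 against Par (adjusted p = 0.00025 in edgeR, without the block) and by 1.57 ± 0.21 in BrM2 against LM2 (adjusted p = 0.0021 in edgeR), and with the block it also rose in LM2 against Par, by 0.71 ± 0.15 (adjusted p = 0.0049 in edgeR). TNFRSF12A, a receptor of the same pathway chosen after its values were seen, stood at 0.09 ± 0.13 in BrM2 against LM2 with the block and did not pass (adjusted p = 0.61 in edgeR).

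The kinases, adaptors and other IκB family genes that passed did so with the block only. Of 10 kinases, TAB3 and IKBKE fell in LM2 against Par with the block, by 1.37 ± 0.17 and 0.46 ± 0.13, and TAB3, TBK1 and IKBKE fell in BrM2 against Par, by 1.48 ± 0.17, 0.75 ± 0.22 and 0.87 ± 0.13 (edgeR). These are 2 and 3 of 10, where 34.5% and 42.5% of all tested genes passed. Of 17 adaptors, ubiquitin ligases and deubiquitinases, 7 passed in LM2 against Par with the block, of which TRAF6 rose and 6 fell. In BrM2 against Par 3 of the 17 passed. The same shares of all tested genes, 34.5% and 42.5%, apply to these counts. TRAF1, an adaptor of TNF receptors, fell in LM2 against Par by 0.68 ± 0.18 (adjusted p = 0.014 in edgeR) and rose by 0.65 ± 0.18 in BrM2 against LM2 (adjusted p = 0.016 in edgeR). Of the other 4 IκB family genes, BCL3, which encodes a nuclear partner of p50 and p52, fell in both LM2 and BrM2 against Par with the block, by 1.44 ± 0.19 and 1.57 ± 0.19 (adjusted p = 0.00022 and 9.7e-05 in edgeR). NFKBIB, which encodes IκBβ, rose in BrM2 against Par by 0.83 ± 0.18 (adjusted p = 0.0043 in edgeR). The genes of this paragraph were chosen after their values were seen.

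Textbook NF-κB target genes went in both directions. Of 17 tested, 5 rose and 4 fell in LM2 against Par with the block, against 15.4% and 19.1% of all tested genes. In BrM2 against Par 7 rose and 8 fell, against 19.4% and 23.1% of all tested genes. CCL2, a monocyte chemokine, had 2.58, 1.55 and 1.89 CPM in Par and 42.0, 57.1 and 51.1 CPM in BrM2, while no LM2 library had over 3 counts. It rose by 4.64 ± 0.27 in BrM2 against Par (adjusted p = 3.5e-05 in edgeR, without the block). Its 129 counts in Par against 9 in LM2 gave a ratio of 15.6 after scaling (95% exact interval 7.95 to 34.8), and its 2929 counts in BrM2 against the same 9 gave 403 (212 to 883). These intervals cover counting error only. VCAM1, an adhesion molecule, had 3.26, 2.95 and 3.89 CPM in Par and 9.39, 9.91 and 7.08 CPM in LM2, while no BrM2 library had over 2 counts. Its 222 counts in Par against 3 in BrM2 gave a ratio of 64.9 (95% exact interval 21.9 to 317), and its 617 counts in LM2 against the same 3 gave 166 (56.5 to 807). VCAM1 rose in LM2 against Par by 1.38 ± 0.35 without the block (adjusted p = 0.045 in edgeR) and by 1.37 ± 0.25 with it (adjusted p = 0.0017 in edgeR). The call without the block was lost in 7 of 9 fits that left out a library, those without any 1 of the Par or LM2 libraries or BrM2 replicate 3 (adjusted p between 0.059 and 0.2 in edgeR).

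CFLAR, an inhibitor of caspase 8, was lower in both sub-populations, with 89.9, 86.8 and 75.5 CPM in Par, 40.7, 50.2 and 48.7 CPM in LM2, and 41.7, 43.7 and 39.3 CPM in BrM2. It fell by 0.85 ± 0.17 in LM2 against Par (adjusted p = 0.016 in edgeR, without the block) and by 1.02 in BrM2 against Par (adjusted p = 0.005 in edgeR). CXCL8, a neutrophil chemokine, had 3.31, 4.11 and 15.6 CPM in Par, 8.5, 9.59 and 6.13 CPM in LM2, and 21.3, 39.5 and 30.7 CPM in BrM2. All BrM2 libraries were above all others, and it rose in BrM2 against Par by 2.11 ± 0.44 with the block (adjusted p = 0.003 in edgeR). Without the block it rose by 1.99 ± 0.57, at the threshold (adjusted p = 0.05 in edgeR). That call was lost in 7 of 9 fits that left out a library, those without Par replicate 1 or 2, any 1 of the LM2 libraries, or BrM2 replicate 2 or 3 (adjusted p between 0.053 and 0.17 in edgeR). Par replicate 3 was the highest Par library, and without it the log2 fold change was 3.04.

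**Figure D5:**
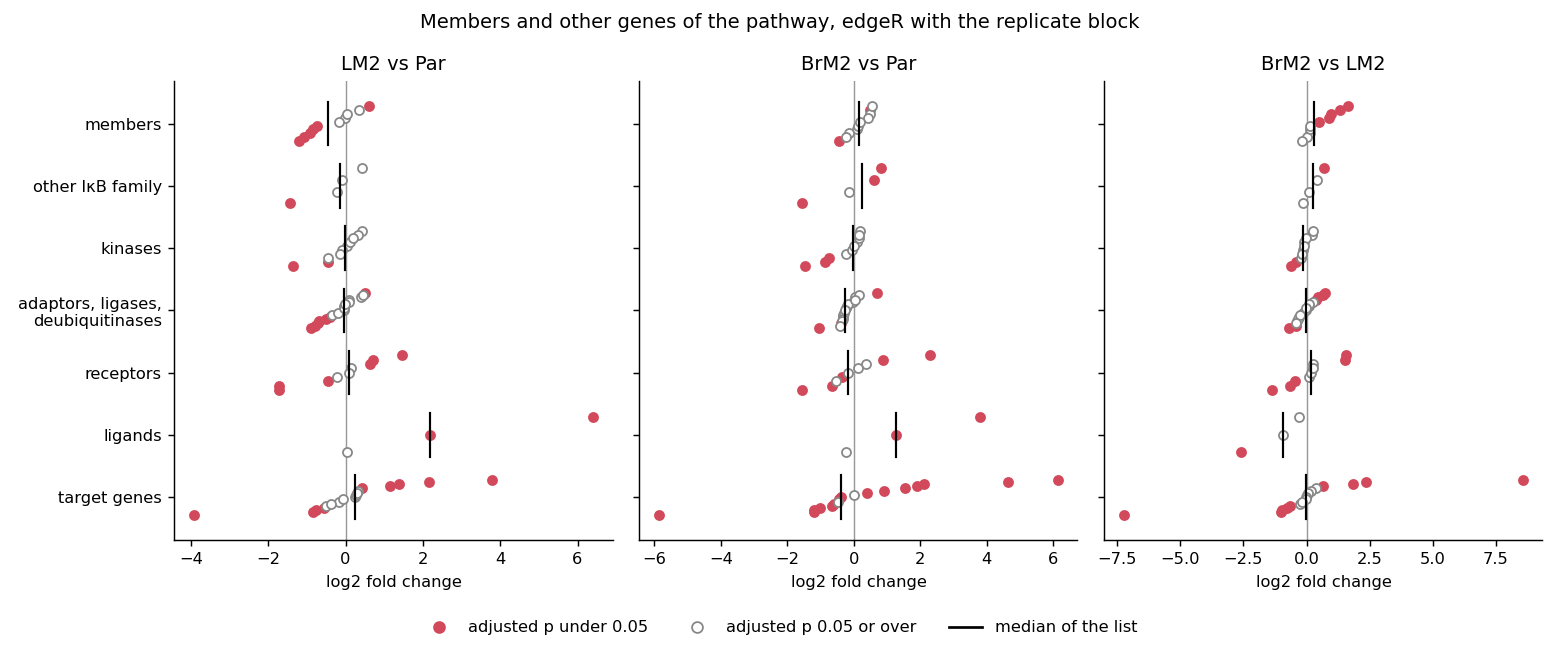
Log2 fold change with the replicate block of the 10 members and of the 60 tested genes of 6 pathway lists, 1 point per gene, filled where the adjusted p in edgeR was under 0.05, with the median of each list as a black line. The members called in LM2 against Par lie mostly to the left of 0, while the target genes spread to both sides; the outermost target points include CCL2 where LM2 is compared and VCAM1 where BrM2 is compared, whose fitted values rest on a line with at most 3 counts per library.

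The genes most like NFKB2, RELB and BIRC3, the 3 members with the widest range of line means, were found as those with the smallest root-mean-square difference of log2 CPM over the 9 libraries, each gene centred on its own mean. A total of 11875 genes was searched. For NFKB2 they included GALNS at 0.13 and MX1 at 0.16, where the median over all genes searched was 0.77. For RELB they were CHCHD5 at 0.18, SECTM1 at 0.20 and AVPI1 at 0.21, with a median of 0.92. For BIRC3 they were LMAN1 at 0.36, ADGRG6 at 0.36 and ITGA2 at 0.41, with a median of 1.21. These genes were picked for the smallest differences, so their place below the median was fixed by the search and is no test. The pattern includes the difference between the replicate numbers, which these libraries share.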

How the data were processed

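RNA-seq libraries were made by the authors with a stranded mRNA kit from 3 replicates of each of 3 lines. According to the study's methods and processing notes, the authors aligned reads with STAR 2.7.0 to hg38 and deposited raw counts per gene. The strand counted is not given in the sources used here. The deposited table of the authors' own DESeq2 comparisons, with log2 fold changes and adjusted p-values, was not used, nor were signal tracks. Of the 58887 rows, 3 repeated identifiers with identical counts were kept once. No value column was left without a sample (0 such columns).

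A filter after HTSFilter chose, among 100 candidate values between 1 and 200, a minimum of 43.21 for a gene's highest normalized count, which left 13186 genes and between 99.7% and 99.8% of the counts. Tests used edgeR 4.0.16 (quasi-likelihood, TMM, 2-sided) in R 4.3.3, with line as the only factor. Standard errors are the log2 fold change divided by the square root of F. Same-numbered libraries deviated together in all 9 pairs of libraries that share a number, with correlations of deviations from the line means between 0.23 and 0.90, so the numbers were taken to pair the samples, and the fit with the replicate number as a block is given beside each result that it changes. This pairing comes from the data, since the labels do not say what a number shares. Scripts were tested on simulated data.

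The members and lists were chosen with earlier results of these data known. From each list and comparison, up to 3 genes with the widest change past the threshold without the block and a mean of at least 50 counts were named. Log2 CPM used a prior count of 2. Transcript length and GC content came from GENCODE canonical transcripts, positions and promoters from RefSeq on GRCh38.p14. Alternatives were RLE size factors, no filter, filterByExpr, DESeq2 1.42.0, the replicate block, the libraries of the lines compared only, and leaving out libraries. The blocked fits without a replicate number were added after seeing the data. A gene among those most like NFKB2 is not reported here.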

Additional observations from a re-analysis of the deposited data

Results flagged for a closer look

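Results for the members and other named genes are listed here where LM2 and BrM2 differed from each other in their change from Par, tested as BrM2 against LM2 in edgeR with Benjamini-Hochberg adjustment over all tested genes. Of the members, NFKB2 differed by 1.29 on the log2 scale without the replicate block (adjusted p = 0.045 in edgeR) and by 1.34 with it (adjusted p = 0.0001 in edgeR). With the block only, RELB differed by 0.96 (adjusted p = 0.013 in edgeR), NFKBIA by 0.48 (adjusted p = 0.014), NFKBIE by 0.88 (adjusted p = 0.0023) and BIRC3 by 1.64 (adjusted p = 0.00062 in edgeR). Each was higher in BrM2 in all 3 replicate numbers. The calls of RELB and NFKBIA were made in 2 of 3 blocked fits without a replicate number.

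Of the other genes of the pathway, CD40 differed by 1.51 without and 1.54 with the block (adjusted p = 0.0056 and 1.7e-05 in edgeR), and TNFRSF11A by 1.57 in both (adjusted p = 0.0021 and 2.1e-05 in edgeR). IL1B differed by -2.58 without and -2.60 with the block (adjusted p = 0.0033 and 1.6e-05 in edgeR), and CXCL8 by 1.86 with the block (adjusted p = 0.0065 in edgeR). BCL2A1, a target gene that encodes an inhibitor of apoptosis and was chosen after its values were seen, differed by 2.33 without and 2.34 with the block (adjusted p = 0.027 and 0.00034 in edgeR). The mean of BCL2A1 was under the 50 counts set as the minimum for naming a gene, so its values rest on few counts. With the block only, TRAF1 differed by 0.65, IKBKE by -0.42 and TBK1 by -0.60 (adjusted p = 0.016, 0.03 and 0.046 in edgeR). The fitted values of CCL2, 8.55 and 8.56, and of VCAM1, -7.20 and -7.22, without and with the block, rest on a line with at most 3 counts per library and are no measure of size. No group had 4 or more libraries, so single libraries were not screened for outlying values.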

How the results depend on the processing

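The replicate block and leaving out replicate 1 changed calls of the members. Without it, 0, 0 and 1 members passed in LM2 against Par, BrM2 against Par and BrM2 against LM2. With the replicate block, edgeR called 6, 2 and 5 members and DESeq2 called 6, 3 and 5, the third in BrM2 against Par being BIRC3. In BrM2 against LM2, 0 members passed with RLE normalization, 2 with no filter on low counts (NFKB2 and BIRC3) and 0 with only the libraries of the lines compared. Leaving out libraries or replicate numbers without the block gave between 0 and 6, between 0 and 3, and between 0 and 5 members in the same order, and with the block between 5 and 6, between 0 and 2, and between 3 and 5. Shares of all tested genes are given above only for the pair of main edgeR models. They were not taken for DESeq2 or the other fits, so the counts of members there have no share beside them. Of the genes in the other pathway lists, 8, 11 and 6 passed without the block, 27, 31 and 24 with it, 28, 30 and 24 in DESeq2 with it, and 14 in LM2 against Par in DESeq2 without it. Leaving out libraries or numbers gave between 2 and 30, 3 and 24, and 2 and 18 of them without the block, and with the block 30, 30 and 17 in LM2 against Par, 22, 33 and 19 in BrM2 against Par, and 14, 29 and 13 in BrM2 against LM2, without replicate 1, 2 and 3.

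The direction turned only in comparisons where the member passed in neither model. In LM2 against Par, NFKB1 stood at 0.02 with RLE normalization and in DESeq2 with and without the block, at 0 with filterByExpr, and in blocked fits at 0.08 without replicate 2 and 0.01 without replicate 3, with a range from -0.06 to 0.08 in unblocked fits that left out libraries. RELA ranged from -0.64 to 0.23 there, REL from -0.08 to 0.85 (-0.01 with the block, without replicate 3) and TNIP1 from -0.51 to 0.45 (-0.19 with the block, without replicate 1). In BrM2 against Par, RELA ranged from -0.49 to 0.19, RELB from -0.70 to 0.11 (0.13 with the block, without replicate 2), NFKBIE from -0.18 to 0.48 (-0.03 with the block, without replicate 3) and TNIP1 from -0.16 to 0.51. For BrM2 against LM2, RELA stood at 0.02 with the replicate block, 0.01 in DESeq2 with it, and 0.17 and 0.02 with it and without replicate 1 or 2, and ranged from -0.40 to 0.51, REL from -0.32 to 0.61 (-0.07 with the block, without replicate 2) and TNIP1 from -0.30 to 0.70 (-0.02 with the block, without replicate 3). RLE normalization, no filter, filterByExpr and DESeq2 without the block changed no other call of a member than those named above. The means of the within-library differences moved by less than 1 SD with a prior count of 0.5. The cause of these changes was not tested. Depth limits REL most, with between 30 and 204 counts per library.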
